A study of Mus musculus with 84 samples.

Results

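Mesothelial genes were followed through the RNA of scraped mouse colon: Msln, Upk3b, Upk1b, Lrrn4, Nkain4, Gpm6a, Wt1, Bnc1, Rspo1 and Aebp1, 10 of the 25494 genes in the count table. They were taken by gene symbol in each of the 12 RNA-seq libraries, and peaks of acetylated lysine 27 and monomethylated lysine 4 on histone H3 (H3K27ac and H3K4me1) were taken where they overlapped a member's locus extended by 10 kb on each side. The list had been drawn up with the RNA values of these same libraries in view, so the levels and differences of its members are given as a description, with no test, and nothing is supported by them.

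The study asked how a high fat diet (HFD) or low fat diet (LFD), and the gut bacteria that come with each, act on the colon epithelium. Male C57BL/6 recipients, germ-free until they were gavaged with feces of HFD-fed or LFD-fed male donors, carried bacteria of the former (HFB, high fat bacteria) or of the latter (LFB) and ate HFD or LFD, giving HFDHFB, HFDLFB, LFDHFB and LFDLFB with 3 RNA-seq libraries each. H3K27ac was also profiled in 11 libraries of such recipients, 2 from HFDHFB and 3 from every other group, and both marks were profiled in conventional C57BL/6 males and females kept on HFD or LFD, with 3 libraries per sex, diet and mark. The labels name no transgene or deletion and give no ages. The labels name the tissue colon epithelium throughout, but the RNA came from cells scraped off the colon, a step that can take up other layers of the wall, whereas the chromatin came from epithelium shaken loose in EDTA. The labels tie no RNA library to a chromatin library, and nothing in them says that replicates are separate animals, so every p-value below measures only the spread between these samples.

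The mesothelium is the flat epithelial sheet that covers the outer, serosal face of the gut and lines the abdominal cavity. It is not part of the mucosa: muscle and connective tissue lie between it and the crypts. Its cells arise from mesoderm, keep the transcription factor Wt1 from the embryonic coelomic lining, make a lubricating surface and carry mesothelin and uroplakins on their membranes.

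The libraries held 39904191 to 48026846 counts. HFDLFB replicates 1 and 2 stood apart in the genes described here and in adipocyte genes, LFDLFB replicate 3 lay next in the genes described here, and HFDLFB replicate 3 held pancreatic RNA, with a summed 584.8 counts-per-million (CPM) for 8 pancreas genes against 6.41 to 22.0 CPM in the other 11 libraries. Epithelial markers summed to 9056 to 13529 CPM in all 12. CPM values use the library size scaled by the TMM method of edgeR. In bulk RNA fewer cells of a type and less RNA per cell cannot be told apart, and this holds for every level below.

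Promoters are shown for the members with an H3K27ac peak within 1 kb of their start in at least 1 library and an entry in the RefSeq promoter table, because the chromatin result below turns on these starts. The 250 bases before each start are given 5′ to 3′ on the gene's own strand, from the RefSeq table of build GRCm38.p6. Each run occurs once in mm9, directly before the start in the count table, at chr11:5761619-5761868 (+) for Aebp1, chr7:89137186-89137435 (−) for Bnc1, chr5:136514116-136514365 (+) for Upk3b, chr2:132706599-132706848 (−) for Lrrn4 and chr4:124663424-124663673 (+) for Rspo1. Capitals mark CATTCC, the core letters bound by TEAD factors, on either strand.
Aebp1: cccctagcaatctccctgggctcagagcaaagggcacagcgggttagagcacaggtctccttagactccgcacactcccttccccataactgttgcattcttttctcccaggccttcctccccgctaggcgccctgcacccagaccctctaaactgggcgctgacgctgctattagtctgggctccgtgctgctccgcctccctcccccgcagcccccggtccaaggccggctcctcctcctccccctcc
Bnc1: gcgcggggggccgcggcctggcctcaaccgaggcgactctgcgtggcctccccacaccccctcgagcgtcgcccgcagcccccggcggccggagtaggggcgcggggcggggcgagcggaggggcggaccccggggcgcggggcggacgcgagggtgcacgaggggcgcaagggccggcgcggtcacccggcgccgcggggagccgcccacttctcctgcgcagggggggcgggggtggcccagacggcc
Upk3b: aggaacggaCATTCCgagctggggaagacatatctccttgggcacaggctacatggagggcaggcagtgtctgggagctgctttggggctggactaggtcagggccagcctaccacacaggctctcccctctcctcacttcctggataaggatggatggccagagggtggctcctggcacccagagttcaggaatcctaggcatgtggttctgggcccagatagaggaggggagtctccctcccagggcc
Lrrn4: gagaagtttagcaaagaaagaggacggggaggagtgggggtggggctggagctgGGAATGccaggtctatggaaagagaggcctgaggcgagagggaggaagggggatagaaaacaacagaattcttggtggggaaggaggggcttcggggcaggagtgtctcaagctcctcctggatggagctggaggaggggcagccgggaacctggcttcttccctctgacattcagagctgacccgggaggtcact
Rspo1: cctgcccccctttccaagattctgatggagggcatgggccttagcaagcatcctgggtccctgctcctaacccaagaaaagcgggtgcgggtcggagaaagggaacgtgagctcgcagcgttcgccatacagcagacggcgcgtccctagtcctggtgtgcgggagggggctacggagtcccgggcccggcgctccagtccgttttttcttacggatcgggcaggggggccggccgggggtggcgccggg
The capitals begin 241 bases before the start of Upk3b and, on the reverse strand, 196 bases before the start of Lrrn4. CATTCC lay in 3 of the 7 promoters listed for 6 of the members (Gpm6a has 2 entries and was the third gene), counted over 250 bases before to 50 after the start, and in 14.7% of all 32851 promoters of the table. Another 3 motifs, none of which contains another, were searched on both strands of the same windows. The letters AGATAA, bound by Gata factors, lay in 0 of the 7, against 11.2% of all promoters. GCGTGGG, bound by Wt1 and Egr factors, lay in 0 of the 7, against 5.04%, and TGANTCA, bound by AP-1, in 0 of the 7, against 7.81%. The number of CpG dinucleotides differed widely between the promoters shown, and all had a share of G or C above the median of the table. The Bnc1 promoter was 83.6% G or C with 39 CpG, the Rspo1 promoter 66.8% with 22 and the Aebp1 promoter 64.4% with 11. The Upk3b promoter was 60.8% G or C with 2 CpG and the Lrrn4 promoter 59.2% with 5. Over the table the median was 52.4% G or C (quartiles 45.2% to 61.2%) and 6 CpG (quartiles 2 to 16). Msln, Upk1b, Wt1 and Nkain4 are named only.

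All 10 members were detected in every library, the lowest count being 43 for Bnc1 in HFDHFB replicate 2. In each of the 10, HFDLFB replicates 1 and 2 were the 2 highest of the 12 libraries and LFDLFB replicate 3 the next. Of all 15893 genes tested, 856 (5.39%) had HFDLFB 1 and 2 on top and 169 (1.06%) had LFDLFB 3 next as well. HFDLFB 1 and 2 averaged 4.07-fold (Nkain4) to 5.70-fold (Lrrn4) the mean of the other 10 libraries, while HFDLFB replicate 3, of the same group, stood at 0.847-fold (Msln) to 1.34-fold (Bnc1) the mean of the other 9. LFDLFB 3 stood 2.80-fold (Wt1) to 3.62-fold (Upk3b) above the mean of its own 2 fellow libraries.

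**Figure D1:**
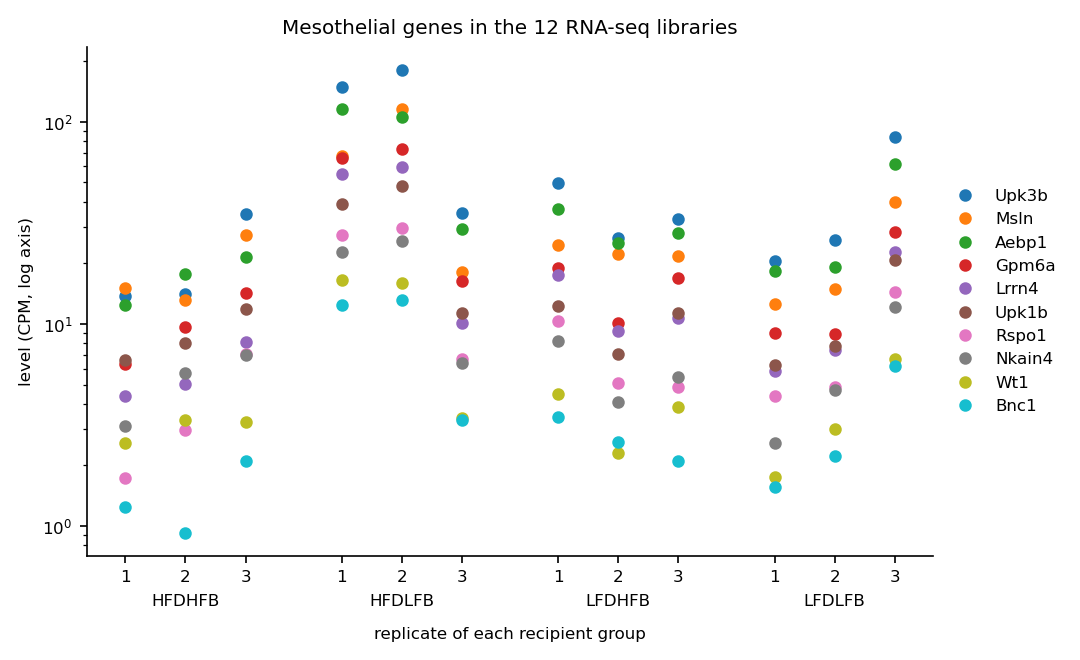
Level in CPM (vertical axis, log scale) of the 10 members in each of the 12 RNA-seq libraries (horizontal axis, replicates of the 4 recipient groups), with 1 point per gene and library and 1 colour per gene. All 10 genes are highest in HFDLFB 1 and 2 and next in LFDLFB 3, as for Upk3b at 148, 179.7 and 83.8 CPM.

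Mesothelin, encoded by Msln (chr17:25885558-25891272, −), is a GPI-anchored surface glycoprotein of mesothelial cells that binds the mucin CA125. Msln stood at 15.0, 13.1 and 27.4 CPM in HFDHFB replicates 1 to 3, 67.6, 115 and 18.0 in HFDLFB, 24.6, 22.0 and 21.7 in LFDHFB and 12.4, 14.8 and 40.1 in LFDLFB. HFDLFB 3 lay inside the range of HFDHFB, so those groups overlapped. Msln differed by −1.85 ± 0.61 (log2 fold change of HFDHFB over HFDLFB ± SE, n = 3 libraries per group).

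The uroplakins are membrane proteins of the bladder's umbrella cells that mesothelium also makes. Upk3b (chr5:136514366-136520863, +), a single-pass uroplakin, had the highest mean level of the 10, though Msln was above it in HFDHFB 1 and Aebp1 in HFDHFB 2. It stood at 13.6, 14.0 and 34.99 CPM in HFDHFB, 148, 179.7 and 35.3 in HFDLFB, 49.9, 26.5 and 33.1 in LFDHFB and 20.3, 26.0 and 83.8 in LFDLFB. Its HFDHFB libraries all lay below its HFDLFB libraries, though HFDHFB 3 and HFDLFB 3 were almost level, and the log2 fold change was −2.54 ± 0.69. Upk1b (chr16:38773297-38800316, −), a tetraspanin, stood at 6.58, 8.07 and 11.8 CPM in HFDHFB, 39.3, 48.0 and 11.3 in HFDLFB, 12.2, 7.05 and 11.3 in LFDHFB and 6.21, 7.78 and 20.6 in LFDLFB. Here HFDLFB 3 fell between HFDHFB 2 and 3, so the groups overlapped, with a log2 fold change of −1.89 ± 0.56.

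A further 3 members encode membrane proteins: Lrrn4 (chr2:132694252-132706598, −), a leucine-rich repeat protein, Nkain4 (chr2:180669477-180689404, −), which belongs to a family that interacts with the sodium pump, and Gpm6a (chr8:55864787-56146231, +), a proteolipid-family glycoprotein better known in neurons. Lrrn4 stood at 4.396, 5.01 and 8.11 CPM in HFDHFB, 55.3, 59.5 and 10.04 in HFDLFB, 17.5, 9.22 and 10.7 in LFDHFB and 5.82, 7.43 and 22.6 in LFDLFB. It had the largest difference of the 10 between HFDHFB and HFDLFB, −2.83 ± 0.68, and its HFDHFB libraries lay below every library of both HFDLFB and LFDHFB. Nkain4 stood at 3.13, 5.72 and 6.97 CPM in HFDHFB, 22.6, 25.7 and 6.41 in HFDLFB, 8.16, 4.11 and 5.47 in LFDHFB and 2.56, 4.72 and 12.1 in LFDLFB. Nkain4 overlapped between HFDHFB and HFDLFB and had the smallest difference, −1.79 ± 0.62. Gpm6a stood at 6.28, 9.64 and 14.2 CPM in HFDHFB, 65.7, 73.4 and 16.2 in HFDLFB, 18.8, 10.04 and 16.9 in LFDHFB and 8.95, 8.90 and 28.5 in LFDLFB. The Gpm6a libraries of HFDHFB lay below those of HFDLFB, by −2.37 ± 0.61.

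Wt1 (chr2:104966686-105013771, +) and Bnc1 (chr7:89111548-89137185, −) encode zinc finger transcription factors, Wt1 being needed for the development of mesothelium, kidney and gonad. Wt1 stood at 2.55, 3.36 and 3.28 CPM in HFDHFB, 16.5, 15.9 and 3.42 in HFDLFB, 4.49, 2.30 and 3.87 in LFDHFB and 1.74, 3.02 and 6.66 in LFDLFB. Its groups HFDHFB and HFDLFB were separated by only the gap between 3.36 and 3.42 CPM, and the log2 fold change was −1.96 ± 0.59. Bnc1, the basonuclin of stratified epithelia, germ cells and mesothelium, stood at 1.24, 0.925 and 2.09 CPM in HFDHFB, 12.4, 13.2 and 3.33 in HFDLFB, 3.47, 2.60 and 2.10 in LFDHFB and 1.56, 2.21 and 6.20 in LFDLFB. Bnc1 was the lowest of the 10 in CPM, and HFDHFB lay below HFDLFB by −2.76 ± 0.63.

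The remaining members encode secreted proteins. R-spondin 1, from Rspo1 (chr4:124663674-124686343, +), binds Lgr receptors and strengthens Wnt signalling in crypt cells. Rspo1 stood at 1.73, 2.97 and 7.11 CPM in HFDHFB, 27.4, 29.8 and 6.71 in HFDLFB, 10.3, 5.09 and 4.84 in LFDHFB and 4.37, 4.88 and 14.3 in LFDLFB. It spanned the widest range of the 10, 17.3-fold from its lowest to its highest library, and HFDHFB 3 lay above HFDLFB 3, so the groups overlapped at a log2 fold change of −2.44 ± 0.70. Aebp1 (chr11:5761869-5772251, +), a carboxypeptidase-like protein that binds collagen and is also made by fibroblasts and smooth muscle, stood at 12.3, 17.6 and 21.4 CPM in HFDHFB, 115, 106 and 29.3 in HFDLFB, 37.0, 24.9 and 28.2 in LFDHFB and 18.3, 19.1 and 61.8 in LFDLFB. All 3 HFDHFB libraries of Aebp1 lay below HFDLFB and below LFDHFB, and the log2 fold change against HFDLFB was −2.29 ± 0.56.

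Over the 10 members the median log2 fold change of HFDHFB over HFDLFB was −2.33, beside −0.0019 over all genes tested. HFDHFB and HFDLFB did not overlap, with HFDHFB lower, in 6 members (Upk3b, Lrrn4, Wt1, Bnc1, Gpm6a and Aebp1), where 4.90% of all genes had that order and 8.11% the opposite one. Since the list was chosen on these libraries, nothing is read from either count. edgeR's quasi-likelihood test called 0 of the 15893 genes at an adjusted p of 0.05 in this comparison, with 1441 genes (9.07%) at an unadjusted p under 0.05, and DESeq2 called 80 (0.504% of the genes to which it gave an adjusted p). With HFDLFB 1 and 2 left out, an alternative added once the values were known, the differences of the members shrank to −1.24 (Bnc1) to 0.04 (Msln), with a median of −0.73. HFDLFB was then 1 library, the one with pancreatic RNA, and since the libraries left out were the highest for every member, a smaller difference followed from the choice.

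The bacteria comparison under LFD showed no such gap. LFDHFB over LFDLFB lay between −0.29 (Bnc1) and 0.06 (Lrrn4) on the log2 scale, and the groups overlapped in all 10 members, where 5.25% of all genes had LFDHFB wholly higher and 5.57% wholly lower. Of the members' SE, 0.53 (Aebp1) was the smallest and 0.67 (Rspo1) the largest, so a difference near 1 could not be told from spread. In this comparison edgeR called 0 of 15893 genes, with 592 (3.72%) at an unadjusted p under 0.05, and DESeq2 called 1 (0.0063% on the same base).

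The diet comparisons share libraries with the bacteria comparisons and are set beside them for that reason only. Among HFB recipients, HFDHFB was below LFDHFB by −1.09 (Lrrn4) to −0.17 (Nkain4), and the groups did not overlap in Lrrn4 (−1.09 ± 0.64), Bnc1 (−0.94 ± 0.60) and Aebp1 (−0.81 ± 0.54), where 3.55% of all genes had that order and 7.47% the opposite one. Among LFB recipients, HFDLFB was above LFDLFB by 1.34 (Aebp1) to 1.80 (Lrrn4), with overlap in all 10, since HFDLFB 3 lay below LFDLFB 3 in each. Of all genes, 5.09% had HFDLFB wholly higher and 6.62% wholly lower. The interaction of diet with bacteria ran from −2.90 (Lrrn4) to −1.66 (Nkain4) with a median of −2.19, beside −0.0532 over all genes. Without HFDLFB 1 and 2, with 1 library left in HFDLFB, the LFB difference was −0.32 to 0.07 and the interaction −0.95 to 0.02, a range that reached 0 in both. edgeR called 0 genes among HFB recipients (1186, or 7.46%, at an unadjusted p under 0.05, and 147, or 1.24% of the genes to which it gave an adjusted p, by DESeq2). It called 0 among LFB recipients (847, or 5.33%, unadjusted, and 11, or 0.0693% on the same base, by DESeq2) and 0 for the interaction (1794, or 11.3%, unadjusted, and 96, or 0.768% on that base, by DESeq2).

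**Figure D2:**
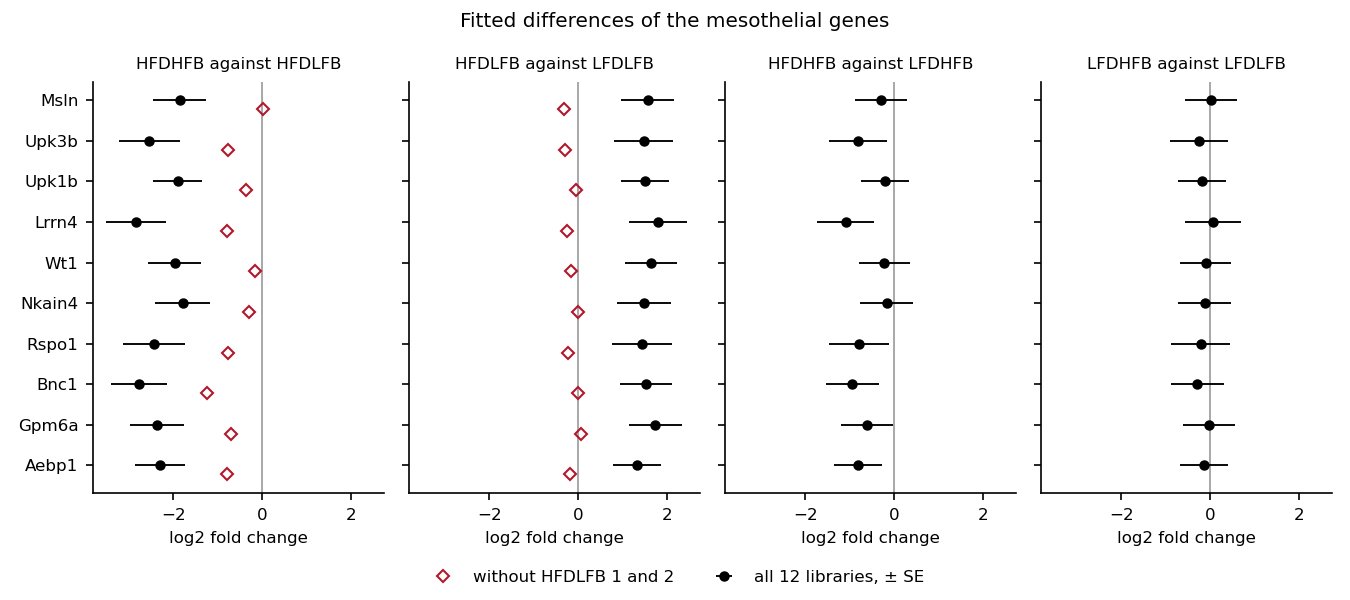
Fitted log2 fold change of each member in the 4 pairwise comparisons, with black points for all 12 libraries (± SE, n = 3 libraries per group) and open diamonds for the fit without HFDLFB 1 and 2. The black HFDHFB against HFDLFB points lie between −2.83 and −1.79 and their diamonds between −1.24 and 0.04, while the LFDHFB against LFDLFB points lie within −0.29 to 0.06.

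The proportions of the members to each other varied less than their level, in a list chosen with these values known. Their summed CPM ran from 66.9 in HFDHFB 1 to 666 in HFDLFB 2, with 571 in HFDLFB 1 and 297 in LFDLFB 3, and the other 8 libraries lay between 80.3 and 187. Upk3b made up a median 25.3% of that sum (17.4% to 28.3% over the libraries), Aebp1 20.3%, Msln 15.4% and Gpm6a 10.6%. The share of Nkain4 ran from 3.11% to 7.13%, that of Rspo1 from 2.58% to 5.53%, that of Wt1 from 2.02% to 4.18% and that of Bnc1 from 1.15% to 2.38%. The log2 ratio of a member to the other 9 had an SD of 0.181 (Gpm6a) to 0.336 (Wt1) over the libraries, against an SD of 0.976 (Upk1b) to 1.25 (Lrrn4) for the log2 CPM itself. Gpm6a therefore tracked the others most closely, and Msln and Wt1 least. Msln took its largest share, 22.4%, in HFDHFB 1, where the sum was lowest, and its smallest, 11.8%, in HFDLFB 1.

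Levels of different genes compare only per length. Divided by the exon length in the mm9 annotation, the mean level was 23.6 CPM per kb for Upk3b, 15.4 for Msln, 10.1 for Aebp1, 8.96 for Upk1b, 7.24 for Nkain4, 6.93 for Gpm6a, 5.14 for Rspo1, 4.84 for Lrrn4, 0.919 for Bnc1 and 0.903 for Wt1. The surface proteins Upk3b and Msln thus headed the order and the transcription factors Bnc1 and Wt1 closed it. Neighbours such as Nkain4 and Gpm6a, Rspo1 and Lrrn4, or Bnc1 and Wt1 differed by far less than the spread of each over the libraries.

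Across the 12 libraries each member's log2 CPM had a Pearson r of 0.954 (Wt1) to 0.989 (Gpm6a) with the mean of the other 9, and of 0.838 to 0.968 over the 10 libraries without HFDLFB 1 and 2. The points share the 2 high libraries and LFDLFB 3, and the members were chosen with these values known, so the correlations describe only. Among the other genes most like the members by the same measure were Igfbp6 (0.981), Serping1 (0.981), Prss12 (0.977), Zfp185 (0.971), Gpc3 (0.964), Crb2 (0.963), Medag (0.962), Aldh1a2 (0.961) and Dcn (0.961), with 0.857 to 0.957 over the 10 libraries. Serping1 encodes the C1 inhibitor of complement, Aldh1a2 makes retinoic acid, Gpc3 is a glypican and Dcn the matrix proteoglycan decorin. Igfbp6, an IGF-binding protein, reached 141 and 145 CPM in HFDLFB 1 and 2 and 89.0 in LFDLFB 3, with 23.8 to 53.8 in the other 9.

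A list of 20 further genes used as mesothelial markers was read beside the members. It too was chosen with earlier results of these data known, so it is no independent check of the name. Of these Muc16 was not analysed here, 19 were in the table and 18 passed the filter on low counts, Tbx18 being the one that did not. HFDLFB 1 and 2 were highest in 8 of the 18 (Pdpn, Podxl, Aldh1a2, Gata5, Efemp1, Thbd, Ildr2 and Igfbp6), and LFDLFB 3 came next in 6 of them, all but Pdpn and Gata5. HFDLFB 1 and 2 averaged 4.80-fold the other libraries in Aldh1a2, 3.91-fold in Ildr2, 3.44-fold in Igfbp6 and 3.12-fold in Efemp1, a fibulin. The other 10 did not have HFDLFB 1 and 2 on top. Pkhd1l1 was 3.70-fold higher there on average but lacked the order, the ratio was 1.22 for the transcription factor Tcf21, and it was 0.841 for Gata6 and 0.545 for Gata4. Krt19, a keratin of colonocytes too, ran from 1664 to 3404 CPM with its highest value in HFDHFB 1, and the HFDLFB 1 and 2 mean was 0.795-fold the others for Krt19, 0.957-fold for Krt7 and 0.876-fold for Cldn15. Calb2, which enteric neurons also make, peaked at 44.4 CPM in LFDHFB 3. Upk3bl, a close relative of Upk3b, was near absent, with at most 0.348 CPM.

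Prg4, the lubricating proteoglycan of serosal and joint surfaces, stood at 0.760, 0.151 and 0.607 CPM in HFDHFB, 8.39, 9.77 and 5.65 in HFDLFB, 22.0, 5.64 and 0.259 in LFDHFB and 8.80, 5.79 and 42.8 in LFDLFB. Prg4 was thus low in all 3 HFDHFB libraries, highest in LFDLFB 3, and, unlike the members, also low in LFDHFB 3. The median log2 fold change of the 18 genes for HFDHFB over HFDLFB was −0.72. edgeR called 0 of the 18 in each of the 5 comparisons. At an unadjusted p under 0.05 there were 9 in HFDHFB against HFDLFB (8 of them lower in HFDHFB) and 0 in LFDHFB against LFDLFB. There were 1 and 4 in the diet comparisons among HFB and LFB recipients, and 3 for the interaction. The shares of all genes tested were 9.07%, 3.72%, 7.46%, 5.33% and 11.3% in the same order. DESeq2 called Efemp1 in HFDHFB against HFDLFB (log2 fold change −1.57, adjusted p = 0.0476, where edgeR gave 0.495) and Prg4 in HFDHFB against LFDHFB (−4.21, adjusted p = 0.0425, where edgeR gave 0.433). When replicate 3 of every group was left out, which removes the HFDLFB library that was not high, edgeR called 45 genes in HFDHFB against HFDLFB, among them Aldh1a2, Efemp1, Igfbp6, Ildr2 and Podxl, 5 of the 18. The share of all genes tested in that fit is not given here. The list was chosen with these data known and the fit keeps only HFDLFB 1 and 2 in that group, so nothing is read from these calls.

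Relatives from the members' own gene families mostly did not share the order. Of 15 relatives 10 passed the filter, and 1 of these, Bnc2, had HFDLFB 1 and 2 highest, 2.85-fold the mean of the others. Upk1a, the partner type of uroplakin, ran from 20.2 to 39.9 CPM with a ratio of 1.06, Nkain1 from 5.81 to 30.6 with 0.875, and Rspo3, the R-spondin of subepithelial stroma, from 1.29 to 6.76 with 1.39. Gpm6b reached 20.8 CPM (2.34-fold), Lrrn2 5.60 (1.114-fold), Lrrn3 4.97 (0.954-fold), Nkain2 3.89 (1.67-fold), Lrrn1 2.90 (1.28-fold) and Rspo2 2.70 (1.81-fold), each counted at its highest library and with the ratio of HFDLFB 1 and 2 to the others. Upk2, Upk3a, Mslnl, Nkain3 and Rspo4 stayed below the filter. The uroplakins Upk2 and Upk3a of the bladder lining had mean levels of 0.0149 and 0.0528 CPM, far below Upk1a, Upk1b and Upk3b. edgeR called 0 of the 10 relatives in each of the 5 comparisons, with 0 at an unadjusted p under 0.05. DESeq2 also called 0, though its own filter left some relatives without an adjusted p in the HFB diet comparison and the interaction.

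Of the receptors and feedback genes that act with R-spondin 1, Lgr4 ran from 147 to 334.9 CPM, Rnf43 from 20.3 to 46.3, Axin2 from 9.58 to 25.8, Znrf3 from 5.21 to 9.49 and Lgr5 from 1.16 to 5.86, while Lgr6 did not pass the filter. In 0 of these 5 were HFDLFB 1 and 2 highest, and the ratio of those libraries to the others was 0.473 (Lgr5) to 0.879 (Znrf3), beside 4.59 for Rspo1. edgeR and DESeq2 called 0 of the 5 in each comparison, with 0 at an unadjusted p under 0.05 in edgeR.

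Markers of other cell types moved with some of the same libraries. All 8 adipocyte genes had HFDLFB 1 and 2 highest, led in level by Fabp4 (14.1 to 1178 CPM), and their sum was 1198 and 2956 CPM there. The adipocyte order then parted from that of the members: LFDHFB 3 was next with 962.5 CPM, while LFDLFB 3, which came next for every member, had 90.9, and LFDHFB 1, the next library by the members' sum, had the lowest, 32.2. The 8 fibroblast genes summed to 1651 and 1527 CPM in HFDLFB 1 and 2 and to 1051 in LFDLFB 3, with 386 to 791 elsewhere, but Dcn alone of the 8 had the members' order. In HFDHFB against HFDLFB edgeR called 0 of the 8 adipocyte and 0 of the 8 fibroblast genes. At an unadjusted p under 0.05 there were 6 and 1, beside 9.07% of all genes tested, and DESeq2 called 0 and 1 (Dcn). The part of adipose or fibroblast RNA in the members' levels was not tested.

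**Figure D3:**
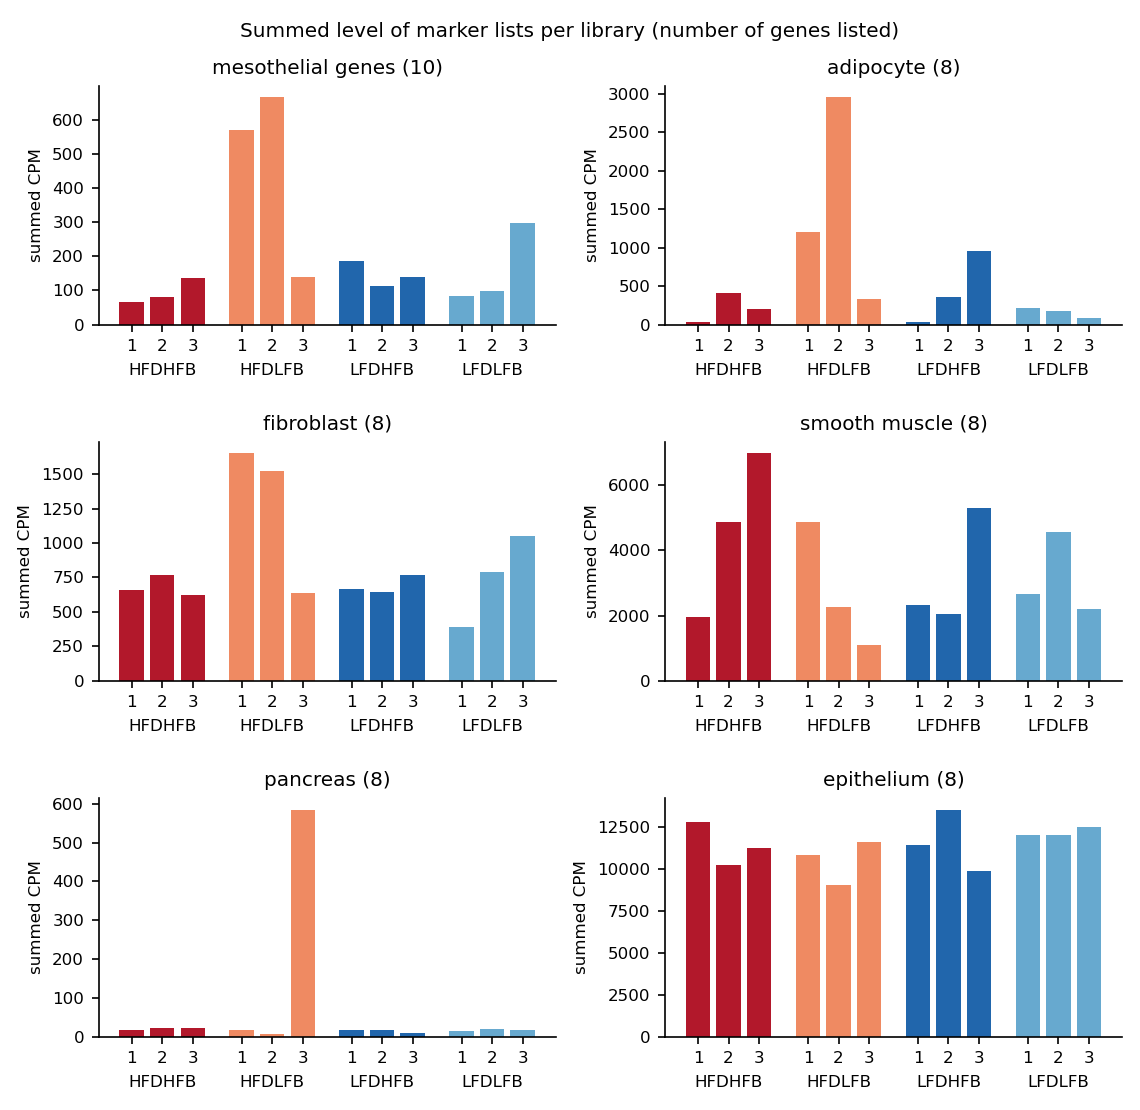
Summed CPM (vertical axes, linear from 0) of the 10 members and of 5 lists of 8 marker genes in each library, with 1 bar per library, coloured by group. The members' sum and the adipocyte sum are both highest in HFDLFB 1 and 2, but LFDLFB 3 comes next for the members (297 CPM) and is among the lowest for adipocyte genes (90.9 CPM).

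Further lists shared the order in part or not at all. Smooth muscle genes, led by Tagln, summed to 1081 to 6976 CPM and peaked in HFDHFB 3, with HFDLFB 1 and 2 at 4870 and 2260. Endothelial genes, led by Pecam1 (10.8 to 30.4 CPM), summed to 100.6 and 85.2 CPM in HFDLFB 1 and 2, their highest libraries, and to 32.9 to 75.5 elsewhere, with 56.9 in LFDLFB 3. Leukocyte genes, led by Lyz2, were highest in the 4 libraries where the members' sum was highest, with 375 CPM in LFDLFB 3, 372 in HFDLFB 2, 325 in LFDHFB 1 and 322 in HFDLFB 1, against 138 to 229 elsewhere. The part of endothelial or leukocyte RNA in the members' levels was not tested. Genes of enteric neurons and glia, led by Uchl1, summed to 38.8 to 270.7 CPM. HFDLFB 1 and 2 were highest in 2 of 8 endothelial, 1 of 7 leukocyte and 0 of 8 neural or smooth muscle genes. Squamous epithelial genes, led by Krt14 (1.72 to 12.8 CPM), summed to 2.13 to 14.0 CPM and showed the order in 0 of 3 genes past the filter. None of the 2 tested pancreas genes, of which Clps was the most abundant of the listed 8, had it, and neither did any of the 8 epithelial genes, led by Krt8.

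In the chromatin of isolated epithelium, H3K27ac, the mark of active promoters and enhancers, was not constant at any member's start. The study's own staining showed that its isolated epithelium was not wholly pure. The part of other cells in the peaks of either mark was not tested. No member had a peak within 1 kb of its start in all 12 long-term libraries, where 67.9% of the genes tested did and 75.2% of genes within the members' range of RNA levels. In the recipients it was again 0 of 10, against 68.1%. In at least 1 long-term library 8 of 10 had such a peak, near the 79.2% of all genes, but few libraries carried them: 4 starts in LFD female 1 (Bnc1, Rspo1, Upk3b and Wt1) and 0 to 2 in each of the other 11. In at least 1 recipient library 3 of 10 had one (Aebp1, Nkain4 and Upk3b), against 81.1%. All 8 epithelial marker genes had the start peak in every library of both sets, and 0 of 8 fibroblast genes did. Of the 18 other mesothelial genes, 5 had it in every long-term library and 4 in every recipient library. In both sets it was 0 of 8 for smooth muscle, endothelial and neural genes and 1 of 8 for adipocyte genes. Of the 5 R-spondin receptor and feedback genes, 5 had it throughout the long-term libraries and 4 throughout the recipients.

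**Figure D4:**
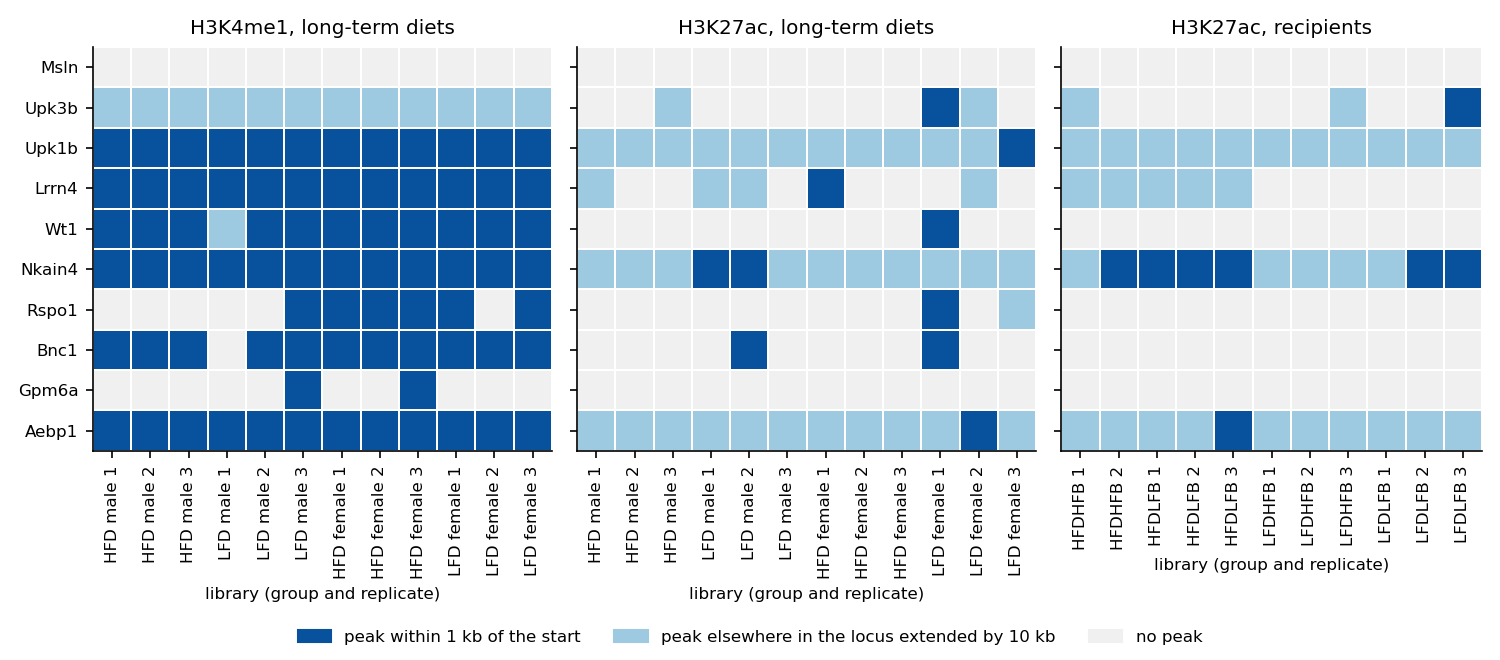
Peaks of the 10 members (rows) in each of the 35 peak lists (columns, by mark and group): dark blue marks a peak within 1 kb of the start, light blue a peak only elsewhere in the extended locus and grey no peak. H3K4me1 is dark across all 12 libraries for Aebp1, Lrrn4, Nkain4 and Upk1b, no member is dark throughout for H3K27ac, and Msln is grey in every list.

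H3K4me1, which marks poised and active enhancers and the flanks of promoters, was commoner. It lay within 1 kb of the start in all 12 libraries for Aebp1, Lrrn4, Nkain4 and Upk1b, 4 of 10 members, against 71.3% of genes, and in at least 1 library for 8 of 10, against 89.3%. Bnc1 and Wt1 had it in 11 libraries, LFD male 1 being the exception for both, Rspo1 in 6 and Gpm6a in 2. Rspo1 had it in 5 of 6 female and 1 of 6 male libraries. Msln and Upk3b, the members with the highest RNA level per kb, had it in 0, and Msln had no peak of either mark within its extended locus in any of the 35 lists. Over the whole extended locus, H3K27ac was present in every long-term library for Aebp1, Nkain4 and Upk1b (3 of 10, against 81.3%), and H3K4me1 for these and Lrrn4, Upk3b and Wt1 (6 of 10, against 90.5%). At Upk3b the H3K4me1 stretch covered in all 12 lay 16.0 to 16.8 kb past the start. The neighbouring gene 2310043J07Rik starts at 16.0 kb, so this peak may belong to either gene.

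The constant H3K27ac peaks lay away from the members' starts. At Aebp1 the peaks of the long-term libraries lay between 13.5 and 17.5 kb past the start, and all 12 covered 16.1 to 16.9 kb, where the start of the neighbouring Pold2, a DNA polymerase subunit on the opposite strand, lies at 16.4 kb. Aebp1 and Pold2 overlap by 69 bp, so reads there could belong to either gene if the counting ignored strand, which the sources used here do not state. At Nkain4 the stretch covered in all 12 lay 9.4 to 7.4 kb before the start. At Upk1b the stretches covered in all 12 lay between 24.7 and 31.1 kb past the start, on both sides of the end of the gene. Gpm6a had no H3K27ac peak in any of the 23 lists. Antisense transcripts begin at or within 0.579 kb of the starts of Bnc1, Nkain4, Rspo1 and Wt1, so a peak there cannot be given to 1 strand. Those at Bnc1, Nkain4 and Rspo1 overlap the gene itself by 298, 236 and 580 bp, and without strand their reads could enter the counts of these members as well.

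**Figure D5:**
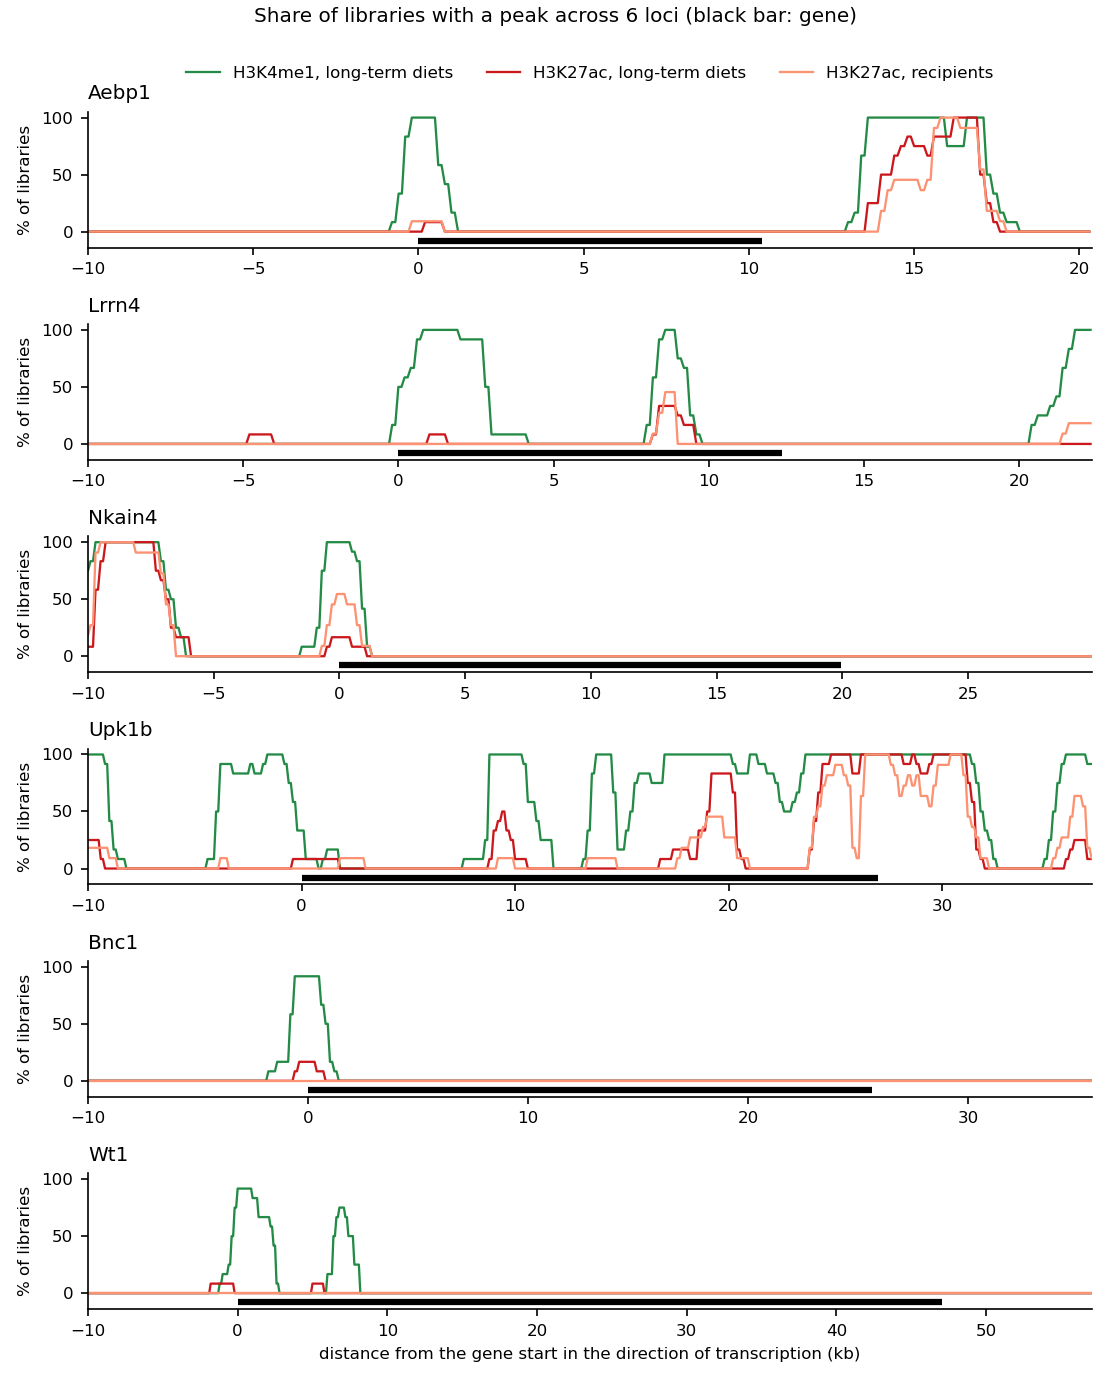
Percentage of libraries with a peak (vertical axes) against the distance in kb from the gene start in the direction of transcription, over the extended loci of 6 members, with 1 line for each mark and set of mice and a black bar for the gene. The H3K27ac lines reach 100% away from the start at Aebp1, Nkain4 and Upk1b, and at Lrrn4 they stay lower over 8.2 to 9.6 kb, with 4 of 12 long-term and 5 of 11 recipient libraries.

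Diet was compared at the member loci by the base pairs that peaks covered, with diets permuted within sex (long-term mice, exact two-sided permutation test, 400 arrangements, smallest possible p = 0.005). No gene of 15893 passed adjustment for H3K27ac or H3K4me1, with 3.90% and 3.52% of genes at an unadjusted p under 0.05, and no member was among those. Nkain4 had the smallest p for both marks: H3K27ac covered 2933 ± 503 bp (SD) in HFD males, 3600 ± 800 bp in LFD males, 2533 ± 416 bp in HFD females and 3068 ± 806 bp in LFD females, a difference of −600.7 bp (exact permutation p = 0.115, adjusted p = 1). For H3K4me1 Nkain4 differed by 399.3 bp (exact permutation p = 0.12, adjusted p = 1). Presence of the start peak also varied at Nkain4: H3K27ac was there in LFD males 1 and 2, HFDHFB 2, all 3 HFDLFB libraries and LFDLFB 2 and 3, 8 of 23 lists. It was there in 0 of 3 lists each of LFDHFB, HFD males, HFD females and LFD females.

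Lrrn4, whose promoter is printed above, had an H3K27ac peak inside the gene, 8.2 to 9.0 kb past the start in the recipients. It was present in 5 of 5 HFD-fed recipients (HFDHFB and HFDLFB), where it covered 400 to 800 bp, and in 0 of 6 LFD-fed ones. With a further peak past the end of the gene in HFDHFB 2 and HFDLFB 1, H3K27ac covered 899.6 bp of the extended locus on average (400 to 1549 bp) in the HFD-fed and 0 in the LFD-fed recipients. The test of that total was chosen after these values were seen: within bacteria the difference was 945.4 bp with an exact permutation p of 0.005, the smallest that 200 arrangements allow, and an adjusted p of 0.19. Differences by diet were frequent among all genes in the recipients, with 14.7% at an unadjusted p under 0.05, and the HFD recipients had 42486 to 51873 peaks in all, against 39684 to 45797 in the LFD recipients. The part of that difference in the Lrrn4 peak was not tested. In long-term mice a peak at 8.2 to 9.6 kb lay in 1 of 6 HFD and 3 of 6 LFD libraries, the opposite order. Over the whole extended locus, other peaks included, the covered difference in these mice was −500.0 bp (exact permutation p = 0.26). The test by bacteria in recipients was likewise chosen after the data were seen, and Upk1b is given because it had the smallest p of the 10 members. Within diet, its covered length differed by −2750.7 bp in HFB compared with LFB recipients (means 6423 against 9403 bp, exact permutation p = 0.05, adjusted p = 1). Of all genes, 3.01% had a p under 0.05, a bound that Upk1b did not pass. The next smallest p was that of Nkain4 (exact permutation p = 0.18).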

How the data were processed

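The members and the gene lists were chosen with earlier results of these data known. RNA-seq gave a table of read counts per gene, deposited by the authors for the 12 recipient libraries, whose processing notes name STAR 2.5, featureCounts 1.5.0-p1 and build mm9. The strand setting of the counting is not given in the sources used here. The raw counts were fitted with edgeR 4.0.16 (TMM, filterByExpr, 4 group means in 1 quasi-likelihood fit, Benjamini-Hochberg over all 15893 genes tested, threshold 0.05), and DESeq2 1.42.0 was an alternative. The 35 peak lists were deposited by the authors as SICER islands called per library (Bowtie 0.12.8, Picard 1.110, mm9). They hold intervals and no signal, so presence and covered base pairs were used, counted from 1. A peak belonged to a member if it overlapped the locus extended by 10 kb by at least 1 bp. Named genes were all members, relatives above 1 CPM in at least 3 libraries, the 10 genes most like the members (1 of which is not reported here), other mesothelial genes called in any comparison (0 in the main fit), and the most abundant gene of each marker list. Genes shown as examples beyond that rule were picked after their values were seen. Scripts were tested on simulated counts. Peaks of the factor HNF4a were not used here.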

Additional observations from a re-analysis of the deposited data

How the results depend on the processing

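Each group had 3 libraries, which limits every comparison, and HFDLFB held 2 libraries that were the highest for every member. The members' log2 fold changes stayed within 1 SD of the reported ones in 340 of 340 values under other processing and in 733 of 800 with libraries left out. The SD was that of the gene's log2 CPM between libraries of a group, pooled over the groups. It is not the SE of a fold change, and the high libraries widen it. With single libraries or replicates left out, HFDHFB over HFDLFB ran from −3.61 to −1.03 over the 10 members and diet among HFB recipients from −1.71 to 0.37. Diet among LFB recipients ran from 0.72 to 3.11, LFDHFB over LFDLFB from −0.94 to 1.01 and the interaction from −4.62 to −0.58. In these fits members changed sign in diet among HFB recipients and in LFDHFB over LFDLFB. DESeq2 called 80, 147, 11, 1 and 96 genes in the same order where edgeR called 0, and 1 other mesothelial gene in each of the first 2 comparisons. With single libraries or replicates left out, genes called by edgeR ran from 0 to 45 for HFDHFB against HFDLFB, 0 to 25 for diet among LFB recipients and 0 to 15 for the interaction. Other mesothelial genes called ran from 0 to 5, 0 to 3 and 0 to 1, the highest counts of these genes coming without replicate 3 of every group. That fit drops the HFDLFB library that was not high, so nothing is read from those counts. Leaving out HFDLFB replicates 1 and 2, chosen after seeing the data, gave 12, 12 and 3 genes in these comparisons, with HFDLFB then 1 library, the one holding pancreatic RNA, which is assumed to vary like the other groups. The cause was not tested. Members with H3K27ac somewhere in the locus in every library numbered 3 with a 10 kb extension, 1 with none and 7 with 50 kb, in long-term mice and in recipients alike. Deviations of same-numbered samples from their group means correlated from −0.591 to 0.451, over 0.1 in 6 of 18 pairs. Differently numbered samples were not set beside them, so these values cannot decide whether replicate numbers pair the samples. A replicate block gave 0 genes in each comparison. Fitting only the groups compared gives no interaction, so none is given for it.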
